A study of Mus musculus with 30 samples.

Results

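The genes described here are the variable (V) segments of the mouse immunoglobulin light chains. Members were all genes whose symbol follows the pattern of a kappa segment (Igkv, family number, position number) or a lambda segment (Iglv, number) and that held at least 10 counts summed over the 30 libraries. Of 163 genes whose symbols match, 135 met this minimum, out of 48709 genes in the count tables; 132 are kappa and 3 are lambda segments. The other 28 fell short, 8 of them with 0 counts in every library. Just inside the limit were Igkv3-8 with 10 counts and Igkv12-49 and Igkv13-56-1 with 11 each, and just outside were Igkv13-62-1 with 7 and Igkv13-54-1 and Igkv14-118-1 with 6 each.

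The libraries came from adult C57BL/6 mice, either of control genotype (WT) or with Ctcf haploinsufficiency (Ctcf+/-), that is, with a single working copy of the gene for the DNA-binding factor CTCF. By the design text, 3 mice of each genotype gave brain, kidney, liver, muscle (quadriceps femoris) and spleen, so each of the 10 groups holds 3 libraries, numbered 1 to 3. The labels do not say which numbers share a mouse, and values from different tissues are therefore not independent of each other. Total RNA was taken with TRIzol from whole pieces of tissue, with an RNA integrity number over 7. The p-values given here measure the spread between these libraries. In bulk tissue, fewer cells of a type and less RNA per cell cannot be told apart.

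A B cell makes its light chain by joining 1 V segment to a J segment in front of a constant region, and the joined gene is then transcribed from the promoter of the chosen V segment. V segment counts in RNA therefore follow which segments the antibody-producing cells chose and how much light chain RNA each cell holds. Plasma cells, the antibody-secreting descendants of B cells, hold far more of that RNA than resting B cells. In the kappa locus the V segments lie in both orientations: those that point the same way as the J segments join by deletion of the DNA between, the others by inversion. CTCF binds at many sites in this locus, among them elements between the V and J segments, and its deletion in pre-B cells has been reported to raise the use of J-proximal kappa segments.

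Coordinates are those of the authors' annotation on GRCm38, and all 135 members have the same coordinates in GENCODE M21. The kappa members lie on chromosome 6, between 18.4 and 3166 kb upstream of the first J segment, Igkj1 (chr6:70722562-70722599, plus strand), and belong to 20 families. Of these, 71 lie within the nearer 50% of the largest distance, called proximal below, and 61 beyond it, called distal. Inverted members number 74, of which most are on the proximal side. The 3 lambda members, Iglv1 (chr16:19085017-19085500), Iglv2 (chr16:19260401-19260859) and Iglv3 (chr16:19241207-19241690), lie on the minus strand of chromosome 16. GENCODE lists 103 members as V genes and 32 as V pseudogenes. Pseudogenes held between 0.336% and 0.505% of light chain V counts in each spleen library.

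The sequences below are coding sequences of transcripts in GENCODE M21 (GRCm38). Iglv1, the most abundant member in WT spleen, and Iglv2 are shown by their last 300 coding bases because they are nearly the same sequence, and counting fragments by segment depends on the few bases that differ. They share 340 of 351 coding bases. Capitals mark the differing bases.
Iglv1: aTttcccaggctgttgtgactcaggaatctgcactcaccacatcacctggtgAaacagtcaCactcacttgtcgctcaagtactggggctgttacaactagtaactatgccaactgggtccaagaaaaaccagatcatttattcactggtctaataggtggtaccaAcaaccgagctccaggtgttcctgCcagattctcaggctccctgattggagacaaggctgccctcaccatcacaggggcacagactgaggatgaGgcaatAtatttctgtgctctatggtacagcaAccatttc
Iglv2: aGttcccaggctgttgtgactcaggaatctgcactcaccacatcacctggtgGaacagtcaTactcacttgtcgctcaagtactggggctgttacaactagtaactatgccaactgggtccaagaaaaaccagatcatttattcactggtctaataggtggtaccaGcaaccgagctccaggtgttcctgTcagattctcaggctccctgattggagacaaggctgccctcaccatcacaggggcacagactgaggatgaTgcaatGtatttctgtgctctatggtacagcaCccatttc
For the kappa members on which the genotype comparison turns, and for Igkv1-110, a close relative of Igkv1-117 that overlapped between genotypes, the last 90 coding bases are shown, which hold the end of the third framework and the start of the antigen-contacting CDR3. Capitals mark the codon of the conserved cysteine at the end of the framework, which pairs with another cysteine inside the domain.
Igkv5-39: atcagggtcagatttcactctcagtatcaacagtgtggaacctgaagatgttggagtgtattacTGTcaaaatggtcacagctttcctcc
Igkv5-43: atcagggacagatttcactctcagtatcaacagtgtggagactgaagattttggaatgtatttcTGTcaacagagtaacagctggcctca
Igkv4-53: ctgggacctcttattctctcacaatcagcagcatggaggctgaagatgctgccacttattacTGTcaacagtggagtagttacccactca
Igkv4-55: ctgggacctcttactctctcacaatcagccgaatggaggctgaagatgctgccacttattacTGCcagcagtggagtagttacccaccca
Igkv1-110: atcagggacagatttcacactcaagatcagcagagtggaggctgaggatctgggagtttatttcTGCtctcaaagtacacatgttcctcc
Igkv1-117: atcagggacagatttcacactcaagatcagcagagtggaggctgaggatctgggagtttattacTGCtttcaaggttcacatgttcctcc

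Likeness between members matters here because the command in the file headers sets no option to count fragments that map to several places, and featureCounts leaves them out by default. Over the transcripts of the 135 members, a median of 80.2% of 50-base stretches occurred in no other gene's transcript. In 35 members every stretch was unique, among them Igkv5-39 and Iglv3, while 20 members had fewer than 50% unique stretches, with the lowest, 19.1%, in Igkv3-11. Iglv1 had 77.8% and Iglv2 76.0%. The corresponding share was 60.4% for Igkv4-53, 46.7% for Igkv4-55 and 48.8% for Igkv5-43, whose closest relative, Igkv5-45, differs at 5 bases of coding sequence. Levels of members with close relatives may be understated relative to those of Igkv5-39 or Iglv3, while a comparison of the same member between libraries uses the same stretches. Across the 135 members, Spearman's rho between the level per kb in WT spleen and the unique share was -0.25, a description over genes that share libraries.

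Total counts per library ran from 49819907 to 131645999. Ctcf itself was lower in each Ctcf+/- library than in each WT library of the same tissue, for example 133.6, 104.9 and 153.5 CPM (counts scaled to a common library size with TMM factors) against 176.3, 228.8 and 195.2 in spleen. The defining B cell markers on the list used here (12 genes, Ms4a1 and Cd79a among them) were all detected in spleen, with summed levels of 5437 to 6923 CPM in WT and 4969 to 5856 CPM in Ctcf+/- libraries. Transcripts of other organs also differed with genotype in spleen: 7 of 8 hepatocyte markers were called lower in Ctcf+/- spleen, with sums of 36.5 to 47.0 CPM in WT against 0.35 to 0.661 CPM, and 3 of 6 kidney tubule markers were called higher, with 0.0841 to 0.379 against 12.04 to 24.4 CPM. These sums did not overlap between genotypes. With the replicate number as a block, edgeR called 0 of 18615 genes in spleen, these markers included (517 at an unadjusted p under 0.05). The block adjusts for numbers that did not pair in spleen. Deviations of same-numbered libraries from their group means correlated at -0.472, -0.227 and 0.475 there. Pancreatic acinar markers ranged up to 1721 CPM in Ctcf+/- spleen and up to 223.4 CPM in WT spleen. The part of these transcripts in the light chain results was not tested.

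Light chain V counts were almost entirely a spleen signal. Of 1302072 member counts, 99.1% were in the 6 spleen libraries, 0.630% in kidney, 0.253% in liver, 0.0191% in brain and 0.0107% in muscle, and 26 members had 0 counts in every library outside spleen. The summed level was 1952, 1737 and 2433 CPM in the WT spleen libraries. It was 27.1, 4.25 and 4.63 CPM in WT kidney, and 6.43, 5.14 and 3.44 CPM in WT liver. WT brain gave 0.222, 0.344 and 0.585 CPM, and WT muscle 0.374, 0.0872 and 0.219 CPM. The tissues thus ordered as spleen, then kidney and liver, whose ranges overlapped, then brain and muscle, whose ranges also overlapped. Set against the average of the other WT tissues, 108 of 108 tested members were higher in WT spleen (edgeR adjusted p under 0.05), where 38% of all genes tested were. That count is a description only, since the members passed the filter on low counts through spleen.

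**Figure D1:**
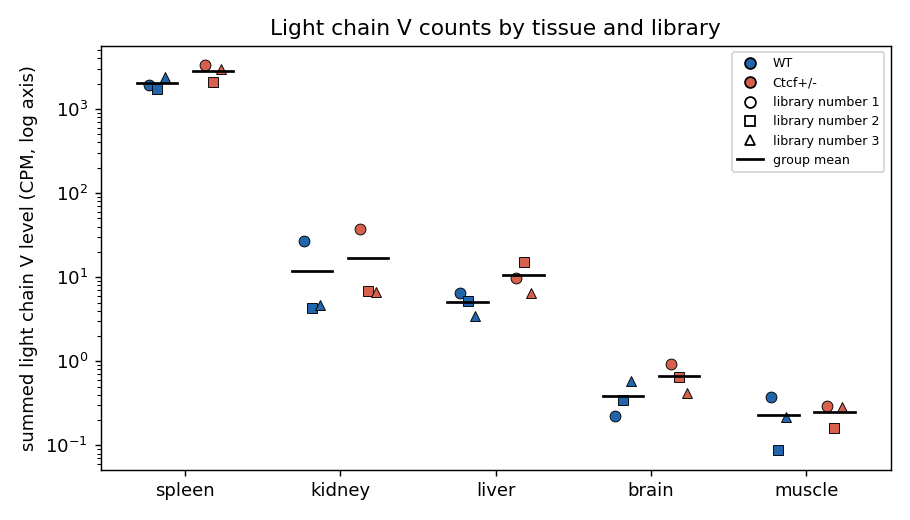
Summed light chain V level in each library, in CPM on a log axis, by tissue and genotype, with bars at group means (n = 3). The spleen libraries lie between 1737 and 3317 CPM, and each other library lies at or below 37.5 CPM; library number 1 is the highest in kidney in both genotypes.

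In WT spleen the usage of the segments was broad. Between 12 and 15 members made up 50% of the light chain V counts of a WT library, and between 49 and 52 made up 90%. Per kb of exon, 15 members exceeded 100 CPM and 30 stayed under 1 CPM. The leading member was Iglv1, with 527.5 ± 52.8 CPM per kb (SD, n = 3), followed by Igkv5-39 with 339 ± 230 and Igkv1-117 with 213.9 ± 26.0. Iglv2 (200.6 ± 76.5) and Igkv1-110 (191 ± 51.8) came next, and these neighbours did not differ beyond their spread. Igkv10-96, Igkv8-30, Igkv6-15, Igkv1-135 and Iglv3 completed the leading 10, between 159.1 and 132.3 CPM per kb. These leading segments came from both ends of the locus: Igkv6-15 (chr6:70406469-70406992) lies 316 kb from Igkj1 and Igkv1-135 (chr6:67609713-67610508) lies 3112 kb away.

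The WT spleen libraries resembled each other in usage but individual segments still varied. Across the 135 members, Spearman's rho of counts between pairs of WT spleen libraries was 0.966 to 0.976, and 81.0% to 86.6% of the usage profiles overlapped. Among the 91 members with a mean of at least 1 CPM in spleen, the highest WT library exceeded the lowest by a median of 1.61 times. The largest ratio was 7.09, in Igkv3-5, and 8 members exceeded 3. In the Ctcf+/- libraries the median ratio was 1.65 and 19 members exceeded 3, with a largest ratio of 21.5 in Igkv1-99. Igkv3-5 and Igkv1-99 were picked out after their values were seen.

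By position, usage in WT spleen followed neither distance nor the number of segments alone. The 20 members from 800 to 1200 kb held 20.9% ± 2.13 of kappa counts (SD, n = 3), led by Igkv5-39, and the 16 members from 2400 to 2800 kb held 17.4% ± 0.312, led by Igkv1-117. The 15 members between these stretches at 1200 to 1600 kb held 6.23% ± 1.17. The nearest 400 kb, with 20 members, held 18.1% ± 1.54. By family, Igkv4 with 32 members held 15.7% ± 0.720 of kappa counts and Igkv1 with 12 members held 14.0% ± 0.358. Lambda segments, although only 3, held 14.8%, 17.2% and 16.5% of light chain V counts in the WT spleen libraries, and most of that was Iglv1.

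The comparison of Ctcf+/- with WT spleen asks whether light chain V usage differed when 1 copy of Ctcf was lost. The difference in the data centred on a single kappa segment, Igkv5-39 (chr6:69900424-69900977, minus strand, 822 kb from Igkj1), an inverted member of the Igkv5 family. Its share of light chain V counts was 5.14%, 2.77% and 8.41% in the WT libraries and 20.2%, 13.6% and 26.4% in the Ctcf+/- libraries. Every Ctcf+/- library was above every WT library, and Igkv5-39 replaced Iglv1 as the leading member in all 3. In CPM it was 100.3, 48.0 and 204.6 in WT and 671.4, 286.1 and 786.2 in Ctcf+/- spleen, a log2 fold change of 2.30 (SE 0.60). This difference did not pass adjustment over all genes in edgeR's quasi-likelihood test (adjusted p = 0.618; 0.236 to 1 over the alternatives run with edgeR), while DESeq2 gave an adjusted p of 0.00797 (log2 fold change 2.28).

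**Figure D2:**
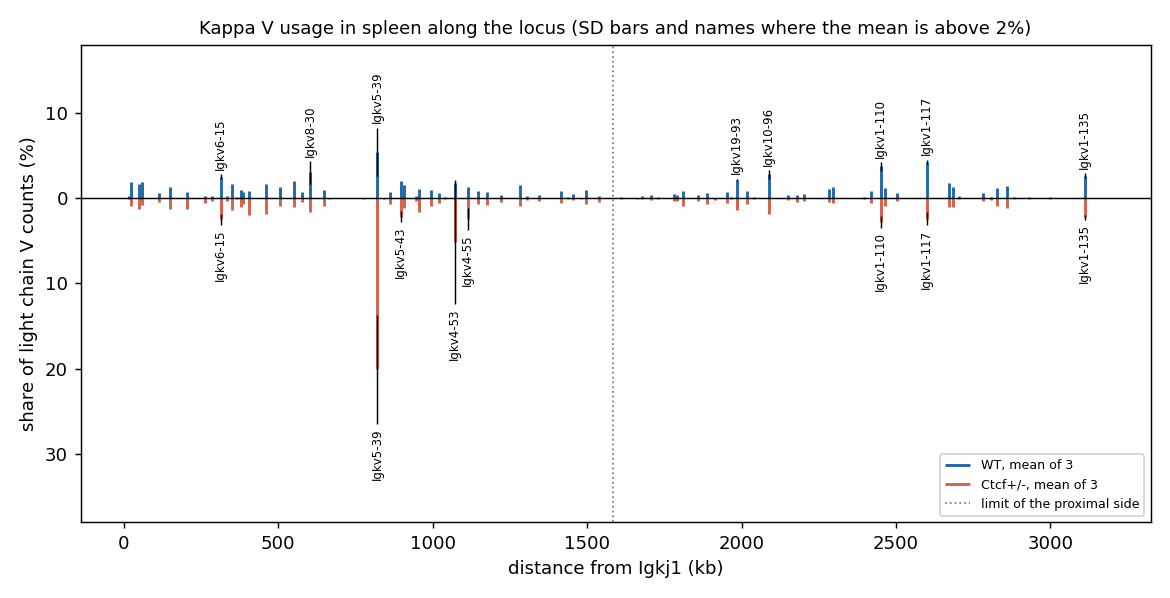
Mean share of light chain V counts in spleen (%, n = 3) of each kappa member against its distance from Igkj1 in kb, WT upward and Ctcf+/- downward, with SD bars and names where the mean is above 2%. Igkv5-39 stands at 5.44% in WT and 20.1% in Ctcf+/- spleen, and Igkv4-53 carries a wide bar in Ctcf+/- spleen because a single library is high.

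No member was called between genotypes in spleen by edgeR at an adjusted p under 0.05 (0 of 115 tested, 0.242% of all genes tested). At an unadjusted p under 0.05 there were 19 members, 14 higher and 5 lower in Ctcf+/- spleen, against 3.52% of all genes tested in either direction (2.55% higher and 0.972% lower). DESeq2 called 2 of the 115, Igkv5-39 and Igkv6-14, against 1% of all genes. The 20 members not tested had too few counts. The groups did not overlap in 14 members higher in Ctcf+/- spleen (12.2% of those tested, against 4.35% of all genes) and in 5 members lower (4.35% of those tested, against 2.29% of all genes). The median log2 fold change of the 115 was 0.09, and 66 were above 0, where 48.9% of all genes were. The genotypes thus separated in a minority of segments.

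Among those that separated, Igkv6-14 (chr6:70434952-70435476), chosen after its values were seen, is a weakly used segment 287 kb from Igkj1. It measured 4.23, 3.50 and 5.12 CPM in WT and 10.04, 6.78 and 10.4 CPM in Ctcf+/- spleen, a log2 fold change of 1.08 (SE 0.25; edgeR adjusted p = 0.407, DESeq2 adjusted p = 0.019). On the lower side, Igkv1-117 (chr6:68121046-68121827), a distal segment that does not invert, measured 86.8, 75.7 and 96.7 CPM in WT and 59.6, 68.6 and 65.0 CPM in Ctcf+/- spleen. Its groups did not overlap, with a log2 fold change of -0.42 (SE 0.15; edgeR adjusted p = 1). Igkv3-1 (chr6:70703578-70704177), the tested member nearest to Igkj1, measured 4.47, 6.20 and 5.62 CPM against 3.21, 4.39 and 3.10 CPM, again without overlap (log2 fold change -0.61, SE 0.23, edgeR adjusted p = 1). At the far end, Igkv1-135 overlapped between genotypes, with 50.9, 40.8 and 72.0 CPM in WT and 85.8, 43.7 and 62.9 CPM in Ctcf+/- spleen.

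The fold changes of Igkv4-53 and Igkv8-21, named for their size, rested on single libraries. Igkv4-53 (chr6:69648824-69649363, 1073 kb from Igkj1) measured 25.2, 19.2 and 71.3 CPM in WT spleen, and 447.4 CPM in the first Ctcf+/- library but 23.5 and 24.6 CPM in the other two. Its log2 fold change of 2.10 (SE 1.23, edgeR adjusted p = 1) became -0.68 without that library. Igkv8-21 (chr6:70314895-70315472) measured 20.4, 13.8 and 15.3 CPM in WT, and 19.4, 23.5 and 123.6 CPM in Ctcf+/- spleen, so that it was high in the third library. Its log2 fold change of 1.75 (SE 0.72, edgeR adjusted p = 1) became 0.38 without it. Some other members with large fold changes, chosen after their values were seen, did not overlap between groups: Igkv4-90 (1.52 ± 0.494 against 4.78 ± 3.82 CPM, log2 fold change 1.65), Igkv7-33 (0.612 ± 0.247 against 1.53 ± 0.695 CPM, 1.32) and Igkv3-12 (15.7 ± 1.04 against 34.7 ± 16.1 CPM, 1.15), with an edgeR adjusted p of 1, 1 and 0.867. Igkv4-53 and Igkv8-21 were thus high in different Ctcf+/- libraries.

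The remaining leading members overlapped between genotypes in spleen. Igkv1-110 was near 0 on the log2 scale (0.00, SE 0.27), and Igkv10-96 (-0.15, SE 0.27), Igkv8-30 (-0.44, SE 0.25) and Igkv6-15 (0.39, SE 0.25) overlapped between groups. Among the lambda segments, Iglv1 measured 209.2, 184.3 and 225.3 CPM in WT and 175.2, 202.3 and 167.1 CPM in Ctcf+/- spleen, a log2 fold change of -0.18 (SE 0.15). Iglv2 (0.39, SE 0.42) and Iglv3 (-0.21, SE 0.38) also overlapped. All 7 had an edgeR adjusted p of 1.

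The kappa and lambda totals were compared as shares. Lambda segments held 14.8%, 17.2% and 16.5% of light chain V counts in WT spleen and 8.26%, 15.3% and 12.4% in Ctcf+/- spleen. The groups overlapped, and the means of 16.2% ± 1.23 and 11.97% ± 3.52 (SD, n = 3) gave p = 0.2 in the exact permutation test, 2-sided (adjusted p = 0.257 over 9 such tests). Because Igkv5-39 adds to the denominator, the share was also taken without it, which gave 17.1% and 14.95%. The lambda share of constant region counts (Iglc1, Iglc2 and Iglc3 against Igkc), another readout of the same choice, was 20.2%, 22.8% and 22.7% in WT and 12.2%, 19.7% and 17.5% in Ctcf+/- spleen, and these did not overlap (not tested). Iglc2 and Iglc3 may share fragments as near-identical genes, so this share is uncertain.

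By position, the proximal segments as a whole held a higher share in Ctcf+/- spleen. With all members counted, only 1 stretch of the locus had a higher mean share. The proximal share of kappa counts was 58.0%, 61.2% and 58.2% in WT and 77.9%, 66.2% and 72.0% in Ctcf+/- spleen, with means of 59.2% ± 1.78 and 72.1% ± 5.86 (SD, n = 3). The groups did not overlap, and the 2-sided exact permutation test gave p = 0.1, the smallest that 3 against 3 allows (adjusted p = 0.225). The inverted share also did not overlap in spleen, and most inverted members are proximal. It was 59.1%, 56.5% and 58.5% in WT against 74.8%, 64.3% and 75.1% (means 58.0% ± 1.39 and 71.4% ± 6.13, exact p = 0.1, adjusted p = 0.225). Part of both differences lay in Igkv5-39. Without it, an alternative chosen after seeing the data, the proximal share was 56.2% in WT and 63.8% in Ctcf+/- spleen, and the groups touched, the highest WT library at 59.9% and the lowest Ctcf+/- library at 59.8% (exact p = 0.2). The inverted share without it was 55.1% against 63.2% and still did not overlap (exact p = 0.1). With Igkv4-53 also left out, the proximal share was 55.2% in WT and 61.2% in Ctcf+/- spleen, with overlap (exact permutation p = 0.2). The inverted share was then 54.05% against 60.3%, without overlap (exact permutation p = 0.1). The shares over all kappa members are precise as counts, since each rests on at least 114020 kappa counts. Intervals here cover counting error only.

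**Figure D3:**
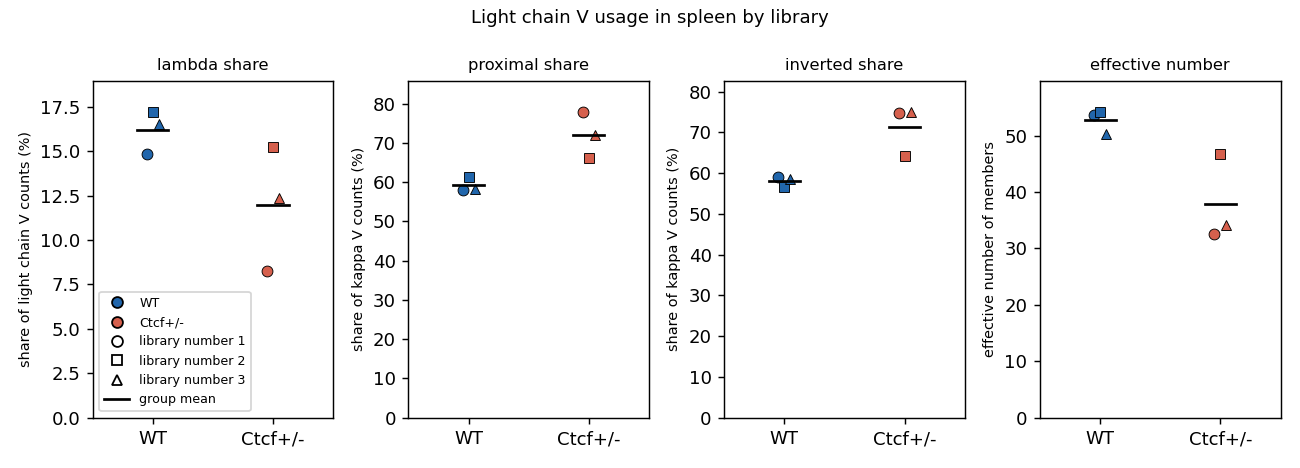
The 4 usage measures in each spleen library: lambda share of light chain V counts, proximal and inverted shares of kappa counts (all in %), and the effective number of members, with bars at group means (n = 3). The lambda shares overlap between genotypes and the other measures do not, with Ctcf+/- library number 2 nearest to WT in each.

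Usage was also less even in Ctcf+/- spleen. The effective number of members, the number of equally used segments that would give the same Shannon entropy, was 53.6, 54.3 and 50.3 in WT and 32.6, 46.8 and 34.2 in Ctcf+/- spleen. The groups did not overlap (means 52.7 ± 2.11 and 37.9 ± 7.76, exact permutation p = 0.1, adjusted p = 0.225). This difference came with Igkv5-39 and Igkv4-53: without the first the means were 53.2 and 50.5, and without both they were 52.4 and 53.2 (exact p = 0.4).

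Leaving the shares aside, proximal and distal members were compared by their own fold changes in spleen. Of 63 proximal members tested, 42 had a log2 fold change above 0, with a median of 0.28. Of 49 distal members tested, 23 were above 0, with a median of -0.01. Groups that did not overlap were found in 11 proximal members higher and 1 lower, and in 3 distal members higher and 4 lower. These are 17.5% and 1.59% of the proximal members and 6.12% and 8.16% of the distal members, where 4.35% and 2.29% of all genes were higher and lower. The share of distal members above 0, 46.9%, was near the 48.9% of all genes, and that of proximal members was 66.7%. As a description across the 112 tested kappa members, Spearman's rho between the log2 fold change and the distance from Igkj1 was -0.22. By stretch of the locus, only the 20 members at 800 to 1200 kb had a higher mean share of kappa counts, 41.5% ± 9.72 in Ctcf+/- against 20.9% ± 2.13 in WT spleen. The other proximal stretches had lower means, 14.9% against 18.1% at 0 to 400 kb, 11.2% against 13.98% at 400 to 800 kb and 4.57% against 6.23% at 1200 to 1600 kb. At 2000 to 2400 kb, led by Igkv10-96, the share was 5.28% ± 0.170 against 8.80% ± 1.11, and at 2400 to 2800 kb it was 11.1% ± 3.38 against 17.4% ± 0.312. Without Igkv5-39 the 800 to 1200 kb stretch held 24.1% ± 11.5 in Ctcf+/- against 15.3% ± 1.16 in WT spleen. This stretch also holds Igkv4-53, which measured 447.4 CPM in Ctcf+/- spleen number 1 but 23.5 and 24.6 CPM in numbers 2 and 3. Leaving Igkv4-53 out as well lowered the proximal share from 71.7% to 65.1% in number 1. In numbers 2 and 3 it went from 59.8% to 59.1% and from 60.0% to 59.4%. The stretch was not measured without both members, so its higher mean may rest largely on number 1. Without Igkv5-39 the stretches at 2000 to 2400 and 2400 to 2800 kb held 6.86% against 9.42% and 14.2% against 18.6%. The remaining stretches were then close to WT: 19.2% against 19.4% at 0 to 400 kb, 14.5% against 14.9% at 400 to 800 kb, 5.98% against 6.65% at 1200 to 1600 kb, 7.91% against 8.26% at 1600 to 2000 kb and 7.15% against 7.45% at 2800 to 3200 kb. With all members counted, the means were also lower at 1600 to 2000 kb (6.04% against 7.70%) and 2800 to 3200 kb (5.52% against 6.95%). A lower mean share was therefore seen in each stretch outside 800 to 1200 kb with all members counted. Without Igkv5-39 it was seen mainly from 2000 to 2800 kb.

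The shares were also read in kidney and liver, where too few counts per library were present for the test set for spleen (377 to 3551 light chain V counts in kidney, 210 to 1132 in liver). The proximal share in kidney was 53.0%, 61.4% and 59.3% in WT and 78.9%, 71.3% and 73.2% in Ctcf+/- libraries. In liver it was 58.5%, 53.7% and 45.7% in WT and 71.1%, 79.0% and 67.4% in Ctcf+/- libraries. In both organs every Ctcf+/- library was above every WT library. The Wilson 95% intervals, for counting error only, were as wide as 38.4% to 53.1% in the shallowest library, WT liver number 3. Without Igkv5-39 and Igkv4-53 the kidney shares were 45.4%, 59.9% and 57.9% against 71.0%, 69.8% and 69.2%, and the liver shares 56.8%, 52.4% and 42.7% against 59.1%, 71.0% and 62.3%, again without overlap. The other shares separated less. The inverted share overlapped in kidney (63.3% to 70.4% in WT against 65.3% to 77.9%) and did not in liver (50.3% to 63.2% against 70.7% to 71.2%). The lambda share overlapped in both, with 10.3%, 11.9% and 23.3% in WT against 4.48%, 24.2% and 13.7% in Ctcf+/- kidney, and 11.5%, 12.5% and 17.6% against 6.67%, 5.57% and 12.7% in liver. By the design text the organs come from the same mice, so this is not an independent repeat.

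**Figure D4:**
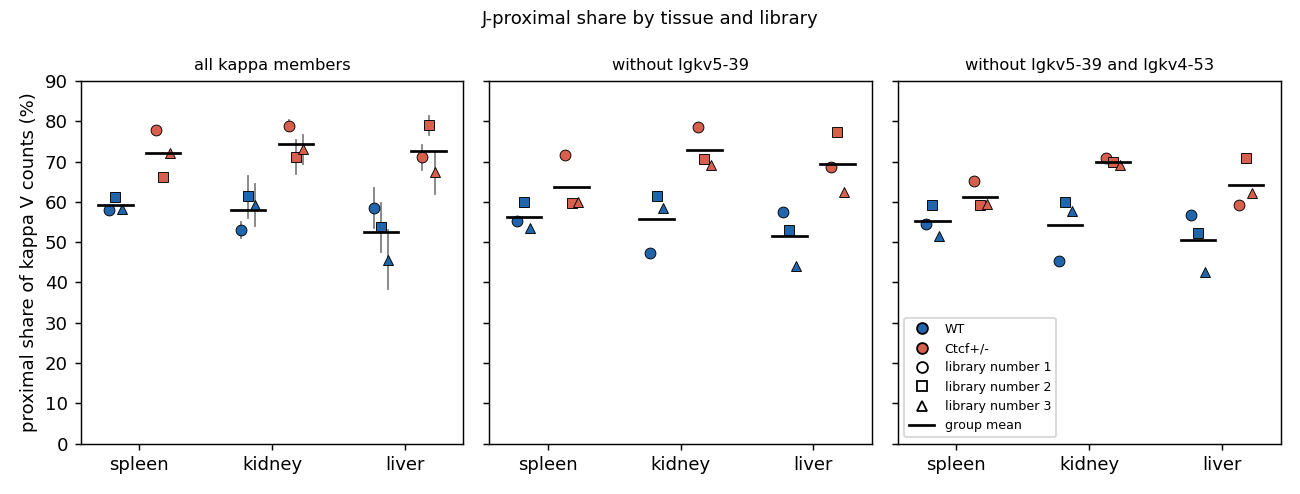
Proximal share of kappa V counts (%) in each spleen, kidney and liver library, for all kappa members (with Wilson 95% intervals as grey lines) and after leaving out Igkv5-39, or Igkv5-39 and Igkv4-53; bars are group means (n = 3). In kidney and liver the genotypes do not overlap in any panel, and in spleen they do not overlap only with all members included.

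The summed light chain V level in spleen was 1952, 1737 and 2433 CPM in WT and 3317, 2105 and 2979 CPM in Ctcf+/- libraries. These overlapped, and the means of 2040 ± 357 and 2800 ± 625 CPM (SD, n = 3) gave an exact permutation p of 0.2 (adjusted p = 0.257). In liver it was 6.43, 5.14 and 3.44 CPM in WT and 9.90, 15.2 and 6.44 CPM in Ctcf+/- libraries. The groups did not overlap, narrowly (means 5.005 ± 1.502 and 10.5 ± 4.44, exact p = 0.1, adjusted p = 0.225). In kidney it was 27.1, 4.25 and 4.63 CPM in WT and 37.5, 6.87 and 6.66 CPM in Ctcf+/- libraries (exact p = 0.5, adjusted p = 0.562). Library number 1 was high in both genotypes there, and the level was higher in the Ctcf+/- library of each of the 3 same-numbered pairs. The mean paired log2 ratio was 0.56 (exact sign-flip p = 0.25, the smallest that 3 pairs allow). The unpaired log2 ratio of group means, 0.50, was -0.82 without Ctcf+/- number 1 and 1.94 without WT number 1, which leaves the other number 1 library unmatched. Brain (0.384 ± 0.185 against 0.664 ± 0.253 CPM, exact p = 0.2) and muscle (0.227 ± 0.144 against 0.249 ± 0.0757 CPM, exact p = 1) overlapped between genotypes.

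In liver Igkv5-39 was again higher in each Ctcf+/- library. It had 10, 4 and 5 counts in WT and 66, 85 and 42 counts in Ctcf+/- liver, or 2.29%, 1.35% and 2.38% against 7.73%, 7.51% and 11.6% of light chain V counts. The log2 fold change was 3.11 (SE 0.41), with an edgeR adjusted p of 0.0882 (0.019 to 0.631 over the edgeR alternatives) and a DESeq2 adjusted p of 2.6e-05. Igkv5-39 passed the filter on low counts through the Ctcf+/- liver libraries, so these tests are a description only. No liver member was called by edgeR (0 of 10 tested, 0.0193% of all genes), 1 had an unadjusted p under 0.05 (4.56% of all genes), and DESeq2 called it (0.468% of all genes). In kidney Igkv5-39 did not separate, with 249, 0 and 7 counts in WT and 50, 8 and 74 counts in Ctcf+/- libraries.

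Kidney differed in other segments, both chosen after their values were seen. Igkv4-55 (chr6:69607275-69607828, 1115 kb from Igkj1) had 13, 5 and 2 counts in WT and 532, 21 and 58 counts in Ctcf+/- kidney. Each Ctcf+/- library was above each WT library, with a fitted log2 ratio of 4.90 (SE 1.25; edgeR adjusted p = 0.431). Igkv5-43 (chr6:69823355-69823943, 899 kb) had 22, 11 and 9 counts against 202, 44 and 25, with a log2 fold change of 2.70 (SE 0.78, edgeR adjusted p = 0.511). Both segments passed the filter on low counts only with the Ctcf+/- libraries, so their tests in kidney are a description only. No kidney member was called by edgeR (0 of 21 tested, 0.0211% of all genes) and 2 had an unadjusted p under 0.05 (6.44% of all genes). DESeq2 called both segments (adjusted p = 0.0455 and 0.0187; 0.866% of all genes). With the replicate number as a block in edgeR, Igkv4-55 alone was called (log2 fold change 4.48, adjusted p = 0.044; 0.111% of all genes). Without both number 1 libraries the log2 fold changes were 3.44 and 1.84, and neither was called. In spleen Igkv4-55 measured 11.1, 37.4 and 32.1 CPM in WT and 129.1, 35.7 and 51.8 CPM in Ctcf+/- libraries, which overlapped.

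Igkv4-53 was the leading member of 3 Ctcf+/- libraries of kidney and liver: 24.6% of light chain V counts in kidney number 1 (Wilson 95% interval 23.2% to 26.1%), 19.7% in liver number 1 (17.1% to 22.5%) and 18.6% in liver number 2 (16.5% to 21.01%). It also held 13.5% in Ctcf+/- spleen number 1. In brain and muscle its only counts were in Ctcf+/- number 1, with 7 of 63 and 7 of 30 light chain V counts. In liver number 3 it held 0.276%, and in kidney 2.27% and 0.152% in numbers 2 and 3. In the WT libraries of the 3 organs it held between 1.01% and 3.45%. Igkv4-53 was thus high in Ctcf+/- number 1 of every tissue and in liver number 2, and not above the highest WT library in the other Ctcf+/- libraries. The labels do not say whether these libraries share a mouse. The usage profile of Ctcf+/- liver number 2 overlapped most with that of Ctcf+/- spleen number 1 (69.8%), more than with spleen number 2 (53.2%).

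**Figure D5:**
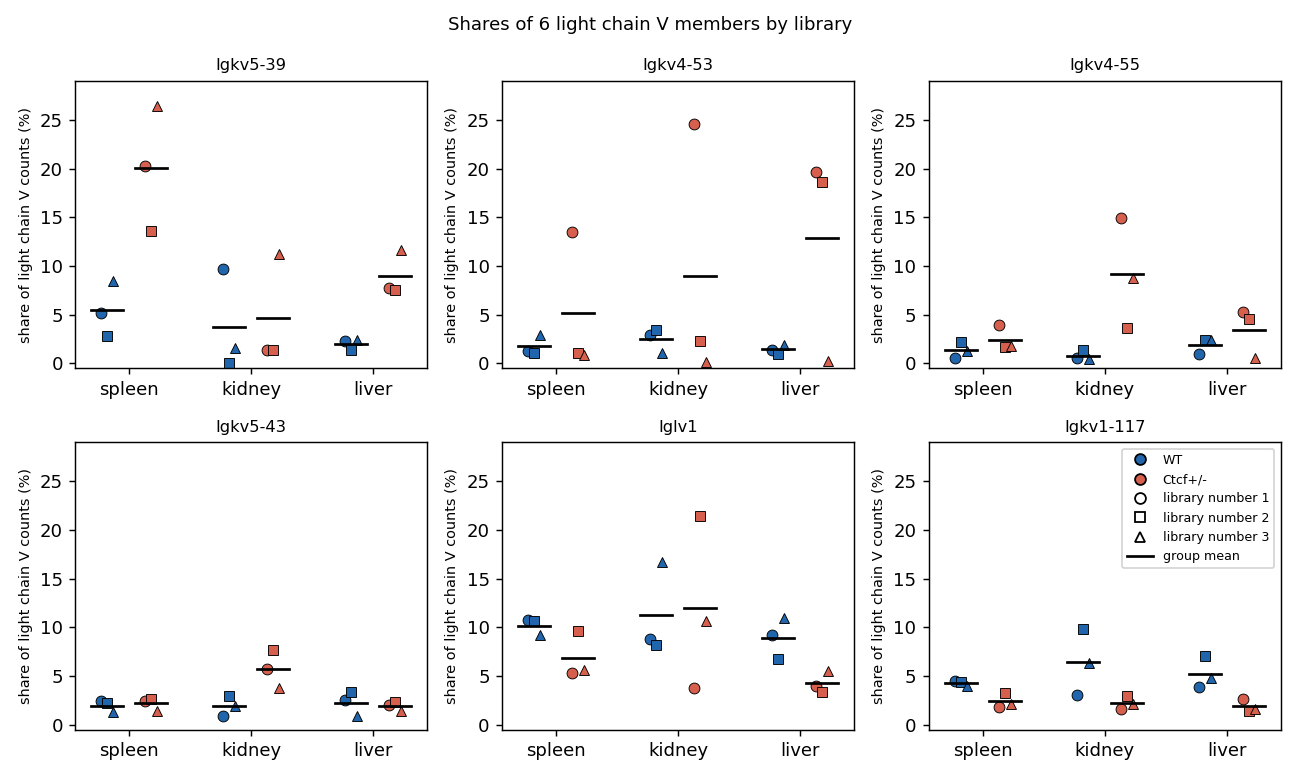
Share of light chain V counts (%) of 6 members in each spleen, kidney and liver library, with bars at group means (n = 3). Igkv5-39 separates the genotypes in spleen and liver but not in kidney, Igkv4-53 is high in 4 of the Ctcf+/- libraries shown, and Igkv1-117 is lower in each Ctcf+/- library than in each WT library in all 3 organs.

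Igkv1-117 gave the converse of Igkv5-39 as a share. It held 4.45%, 4.36% and 3.98% of light chain V counts in WT spleen and 1.80%, 3.26% and 2.18% in Ctcf+/- spleen. In liver it held 3.90%, 7.10% and 4.76% against 2.69%, 1.41% and 1.66%, and in kidney 3.10%, 9.81% and 6.37% against 1.58%, 2.96% and 2.13%. In CPM it overlapped between genotypes in liver (log2 fold change -0.37, SE 0.46) and kidney (-0.72, SE 0.58), so the separation there is one of shares. Of the 115 members tested in spleen, 22 had a share lower in each Ctcf+/- library than in each WT library, 17 of them distal kappa members and 5 proximal, and 5 had a higher share. Igkv5-39 fills more of the total in Ctcf+/- spleen, which lowers the share of every other member. With Igkv5-39 out of the total, 11 of 114 members were lower (9 distal, 2 proximal) and 10 higher (1 distal, 9 proximal). A share of light chain V counts has no value over all genes to set beside these counts. In CPM only 5 of the 115 were lower without overlap (4.35%, against 2.29% of all genes). In CPM 14 were higher (12.2%, against 4.35% of all genes).

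No member's genotype effect was shown to differ between tissues: 0 of 115 tested members were called for the tissue by genotype interaction in edgeR (0.758% of all genes), 2 had an unadjusted p under 0.05 (6.66% of all genes), and the likelihood ratio test of DESeq2 called 0 (3.03% of all genes). Outside spleen, 21 members had enough counts to be tested between genotypes in kidney and 10 in liver. In brain and muscle no member had enough counts to be tested, with at most 86 light chain V counts in a library. The interaction test could therefore show little for most members. Igkv6-25 (chr6:70215400-70215957), the member with the highest summed count in brain, had 24 of the 86 counts of Ctcf+/- brain number 2.

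Markers of antibody-producing cells were also read in spleen. Of 10 plasma cell markers, 0 were called there by edgeR (0.242% of all genes tested). Jchain, which links secreted antibody units, and Derl3, part of the endoplasmic reticulum degradation machinery, had an unadjusted p under 0.05 (3.52% of all genes tested). Jchain measured 364.9, 342.2 and 476.2 CPM in WT and 1126, 454.5 and 663 CPM in Ctcf+/- spleen (log2 fold change 0.92, SE 0.35, edgeR adjusted p = 1). The median log2 fold change of the 10 was 0.22. Of these, 8 were above 0, while Mzb1 (-0.10, SE 0.20) and Irf4 (-0.08, SE 0.27) were below. Summed plasma cell markers ran from 825.2 to 1071 CPM in WT and from 888.3 to 1778 CPM in Ctcf+/- spleen, with none at 0. These sums overlapped, and Jchain is a large part of them. The first Ctcf+/- library, highest in Jchain, was also highest in summed light chain V level and in Igkv4-53. Of 12 B cell markers, 0 had an unadjusted p under 0.05, and their median log2 fold change was -0.16. The part of plasma cell number in the V segment results was not tested.

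None of the listed genes that build and control light chains was called between genotypes in spleen. The share of all genes called was 0.242%, and 3.52% had an unadjusted p under 0.05. Of 13 tested genes of the recombination machinery, 0 were called or had an unadjusted p under 0.05 in edgeR (median log2 fold change 0.01). Among them were Lig4 of the end-joining pathway and Rag1 of the V(D)J recombinase. Rag1 was low, at 1.34 ± 0.501 CPM in WT against 2.24 ± 1.69 CPM (log2 fold change 0.74, SE 0.56). These are levels in adult spleen, and levels in cells at the time of joining were not measured. The same held for 13 transcription factors of the light chain loci, such as Pou2af1 and Irf4 (median -0.02), and for the 2 tested genes of the surrogate light chain, Vpreb1 and Vpreb3. Of 5 constant region genes 0 were called; Igkc measured 2924, 1694 and 2473 CPM in WT and 3621, 3274 and 2924 CPM in Ctcf+/- spleen, which overlapped (fitted log2 ratio 0.47, SE 0.26; edgeR adjusted p = 1).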

How the data were processed

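RNA of 5 tissues from WT and Ctcf+/- mice was sequenced, 3 libraries per group. The authors deposited unnormalized counts of fragments per gene. These were produced by featureCounts 1.5.0-p3 over exons of the Ensembl release 86 annotation of GRCm38, as paired-end fragments and without strand, per the file headers. FastQC, STAR and DESeq2 are named in the submitters' processing notes without versions.

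Members and lists were chosen with earlier results of these data known. Each tissue was fitted over all genes with edgeR 4.0.16 (quasi-likelihood test, TMM scaling, filterByExpr, Benjamini-Hochberg adjustment, threshold 0.05) in R 4.3.3, tested on simulated data. DESeq2 1.42.0 was an alternative. Levels are CPM with TMM factors. Shares, tested only where each library held at least 1000 light chain V counts, and summed levels were compared with 2-sided exact permutation tests (scipy 1.17.1), adjusted over 9 tests.

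Named members were the 10 highest per kb in WT spleen, the lambda members, any called by edgeR, the 3 largest fold changes in spleen (mean at least 1 CPM), the tested kappa members at both ends of the locus and the highest in each other tissue; others are marked as chosen after their values were seen. Deviations of same-numbered libraries from their group means correlated at over 0.1 in each pair in brain (0.207 to 0.537) and kidney (0.19 to 0.212) but not in each pair of the other tissues; the labels do not give the pairing. Alternatives changed the scaling, the filter, the model, the libraries fitted and the members counted. The 20 members under the spleen filter enter the sums and shares but not the tests.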

Additional observations from a re-analysis of the deposited data

How the results depend on the processing

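For the main results, 151 alternative values kept the direction and the side of the threshold, 6 moved and 5 reversed, with the cause not tested unless stated. By DESeq2, 2 members were called in kidney, 1 in liver and 2 in spleen; edgeR called 1 in kidney with the replicate block, 1 in liver (Igkv5-39) with a filter of 1 count, and 1 in liver (Igkv4-53, log2 fold change 5.07, adjusted p = 0.0157) without Ctcf+/- number 3, so the count ranged from 0 to 1 when 1 liver library was left out. Without the leading member of each library the lambda share was 8.28 percentage points higher in Ctcf+/- spleen, because this removes Iglv1 from WT and Igkv5-39 from Ctcf+/- libraries. Without Igkv5-39 and Igkv4-53 the effective number was 0.884 higher in Ctcf+/- spleen. Leaving out 1 library at a time, the log2 ratio of summed levels ran from -0.82 to 1.94 in kidney and from -0.26 to 0.70 in muscle.

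With same replicate numbers treated as a block (paired differences for single values), the proximal share in spleen was 12.9 percentage points higher in Ctcf+/- libraries (exact sign-flip p = 0.25, the smallest it can give), and among members the calls changed only for Igkv4-55 in kidney. Over all genes in spleen, the count called went from 45 to 0, which ends the calls of hepatocyte and kidney tubule markers. The log2 fold change of Igkv5-39 in kidney became 0.56 with the block, from -0.96. In spleen same-numbered libraries correlated at -0.472, -0.227 and 0.475, and none correlated best with its own number.

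Single members near 0 changed sign. Igkv1-110 in spleen went from 0.00 to -0.0174 by DESeq2 and in edgeR with DESeq2 size factors, to -0.0035 with a filter of 1 count and to -0.0157 in the fit of 30 libraries. Igkv4-53 in kidney was -0.29 without both number 1 libraries. Leaving out single libraries, log2 fold changes ran from -2.04 to 4.99 for Igkv4-53 and from -1.53 to 3.59 for Igkv5-39 in kidney, and in spleen from -0.22 to 0.19 for Igkv1-110, -0.0353 to 0.48 for Igkv1-135, -0.38 to 0.0033 for Igkv10-96, -0.68 to 2.90 for Igkv4-53, -0.0344 to 0.29 for Igkv6-25, -0.0372 to 0.73 for Iglv2 and -0.46 to 0.15 for Iglv3. In brain and muscle several settings left 0 members to test and gave no value. Depth limits brain and muscle to sums over members. Leaving out Igkv5-39 (also from the total of the member shares), Igkv4-53 or both number 1 libraries was chosen after seeing the data.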
